A study of Mus musculus with 26 samples.

Results

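Mast cells and basophils are granule-bearing immune cells that carry the high-affinity receptor for IgE and store histamine and proteases in granules. Levels of 8 genes of these cells were followed: Fcer1a and Ms4a2, which encode the IgE-binding alpha chain and the signal-amplifying beta chain of the IgE receptor; Il1rl1, which encodes the receptor for the alarmin IL-33; Cpa3, Mcpt8 and Prss34, which encode granule proteases; Hdc, the enzyme that makes histamine; and Mitf, a transcription factor that mast cells and melanocytes depend on. Array probe sets whose annotation gives a single symbol were matched to these names, and where a gene had several, the one brightest on average over all arrays was taken. In this way 7 of the 8 genes were measured, among 19937 genes in all, and Il1rl1 was not analysed here. Mitf had 2 probe sets and the other 6 genes had 1 each.

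The values are log2 signals of 26 arrays from C57BL/6 mouse cells in 8 groups. Lines immortalized in vitro from long-term hematopoietic stem cells (LT-HSC) were grown in liquid medium with doxycycline (dox) for 48 h (n = 2) or 72 h (n = 3) and without dox for 48 h (n = 3) or 72 h (n = 3). Lines immortalized from granulocyte macrophage progenitors (GMP) were grown with dox (n = 4) or without dox (n = 3) for 48 h. GMP (n = 4) and LT-HSC (n = 4) sorted from wild-type bone marrow completed the series. The title of the series names MLL-AF9, a fusion oncogene of acute myeloid leukaemia, and in the published mouse model dox switches this fusion on. Whether the hours count from adding or from withdrawing dox, and whether a line is a single clone, the labels do not say. The cultured arrays carry the line names B6-1, B6-2, B6-3 and F6-6. The names B6-1, B6-2 and B6-3 occur under both origins, without a statement on whether such lines share a mouse.

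Both cell types descend from myeloid progenitors that already express some of their granule genes. The alpha chain of the IgE receptor binds IgE, the beta chain amplifies the signal and the gamma chain, encoded by Fcer1g, carries it to the kinase Syk. Cpa3 is expressed by mast cells and by basophils and their progenitors, Mcpt8 and Prss34 are proteases of mouse basophils, and GATA2 together with basic helix-loop-helix factors such as MITF, which binds E-boxes, is known to drive genes of these cells.

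The promoters of the 7 genes, 250 bases before to 50 bases after each gene's start, were taken from RefSeq on build GRCm38.p6, where Mitf has 3 such windows and the other 6 genes have 1 each. A GATA motif and an E-box were searched on both strands, and no matches overlapped. The GATA motif, AGATAA or TGATAA, was present in 4 of the 6 single windows and in 2 of the 3 windows of Mitf, against 18.6% of 32851 windows of all genes. The E-box, CATGTG or CACGTG, was present in 2 of the 6 single windows (Fcer1a and Prss34) and in 0 of the 3 of Mitf, against 20.4% of all windows. The windows of the receptor chains are shown because these genes rose with dox at 72 h where the line was taken into account, and those of Cpa3 and Mcpt8 because they were the proteases with the largest differences between the origins. Capitals mark the GATA motif and, in Fcer1a, also the E-box, each as it reads on the printed strand. A match is a description of the letters and not a site of binding.
Fcer1a (chr1:173227180-173227479, minus strand): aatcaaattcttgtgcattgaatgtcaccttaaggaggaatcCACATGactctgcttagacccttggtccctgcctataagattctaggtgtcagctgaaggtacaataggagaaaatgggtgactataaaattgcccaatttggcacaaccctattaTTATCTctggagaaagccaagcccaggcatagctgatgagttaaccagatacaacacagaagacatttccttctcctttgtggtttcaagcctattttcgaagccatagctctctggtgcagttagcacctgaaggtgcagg
Ms4a2 (chr19:11623670-11623969, minus strand): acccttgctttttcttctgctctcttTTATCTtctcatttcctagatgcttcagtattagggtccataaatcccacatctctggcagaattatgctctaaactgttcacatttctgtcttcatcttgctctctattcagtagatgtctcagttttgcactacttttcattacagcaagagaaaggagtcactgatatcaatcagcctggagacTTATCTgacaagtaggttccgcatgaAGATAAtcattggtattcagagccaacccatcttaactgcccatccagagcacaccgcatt
Cpa3 (chr3:20242132-20242431, minus strand): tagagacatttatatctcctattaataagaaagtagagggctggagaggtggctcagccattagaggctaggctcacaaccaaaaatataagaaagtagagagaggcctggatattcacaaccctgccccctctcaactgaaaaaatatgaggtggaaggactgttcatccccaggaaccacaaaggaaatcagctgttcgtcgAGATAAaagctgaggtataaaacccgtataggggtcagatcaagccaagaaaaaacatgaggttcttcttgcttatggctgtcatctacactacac
Mcpt8 (chr14:56085148-56085447, minus strand): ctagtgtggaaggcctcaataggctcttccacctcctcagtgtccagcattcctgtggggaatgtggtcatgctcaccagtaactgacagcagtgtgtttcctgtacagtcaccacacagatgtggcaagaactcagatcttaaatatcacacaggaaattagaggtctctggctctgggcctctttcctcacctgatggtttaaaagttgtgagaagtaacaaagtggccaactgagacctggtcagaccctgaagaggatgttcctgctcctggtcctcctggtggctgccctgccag
The window of Ms4a2 holds 3 copies of the GATA motif AGATAA and those of Fcer1a and Cpa3 hold 1 each. The windows of Mcpt8 and Hdc hold neither motif.

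Array medians lay between 5.81 and 5.91, and across probe sets the arrays within a group had r between 0.979 and 0.991. Precision is limited by how few arrays there are, and since the sources do not tie the sorted replicates to separate animals, p-values for them cover the spread of these samples alone. In such bulk samples, fewer cells of a type and less RNA per cell cannot be told apart. Of 6 stem cell markers, 2 were above the median of all probe sets (5.86) on every array of sorted GMP and 6 on every array of sorted LT-HSC; of 5 monocyte markers, 5 were above it in sorted GMP and 0 in sorted LT-HSC. Of the proteases of connective tissue mast cells, Mcpt4, Cma1 and Tpsb2 were dim in every group. Mean log2 signals lay between 3.35 and 3.60 for Mcpt4 and between 4.13 and 4.59 for Cma1. For Tpsb2 they lay between 5.18 and 5.49. Mcpt2, another mast cell protease, averaged 3.47 in sorted GMP and 3.50 in sorted LT-HSC (SD 0.16 and 0.15). In GMP-derived lines it averaged 3.41 with dox and 3.57 without dox (SD 0.13 and 0.09). Its SE of 0.49 between the sorted cells draws on the pooled spread of all groups, which was thus wider in LT-HSC-derived lines. Cpa3, a protease that mast cells also express, was not dim, with group means up to 9.96 in LT-HSC-derived lines.

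**Figure D1:**
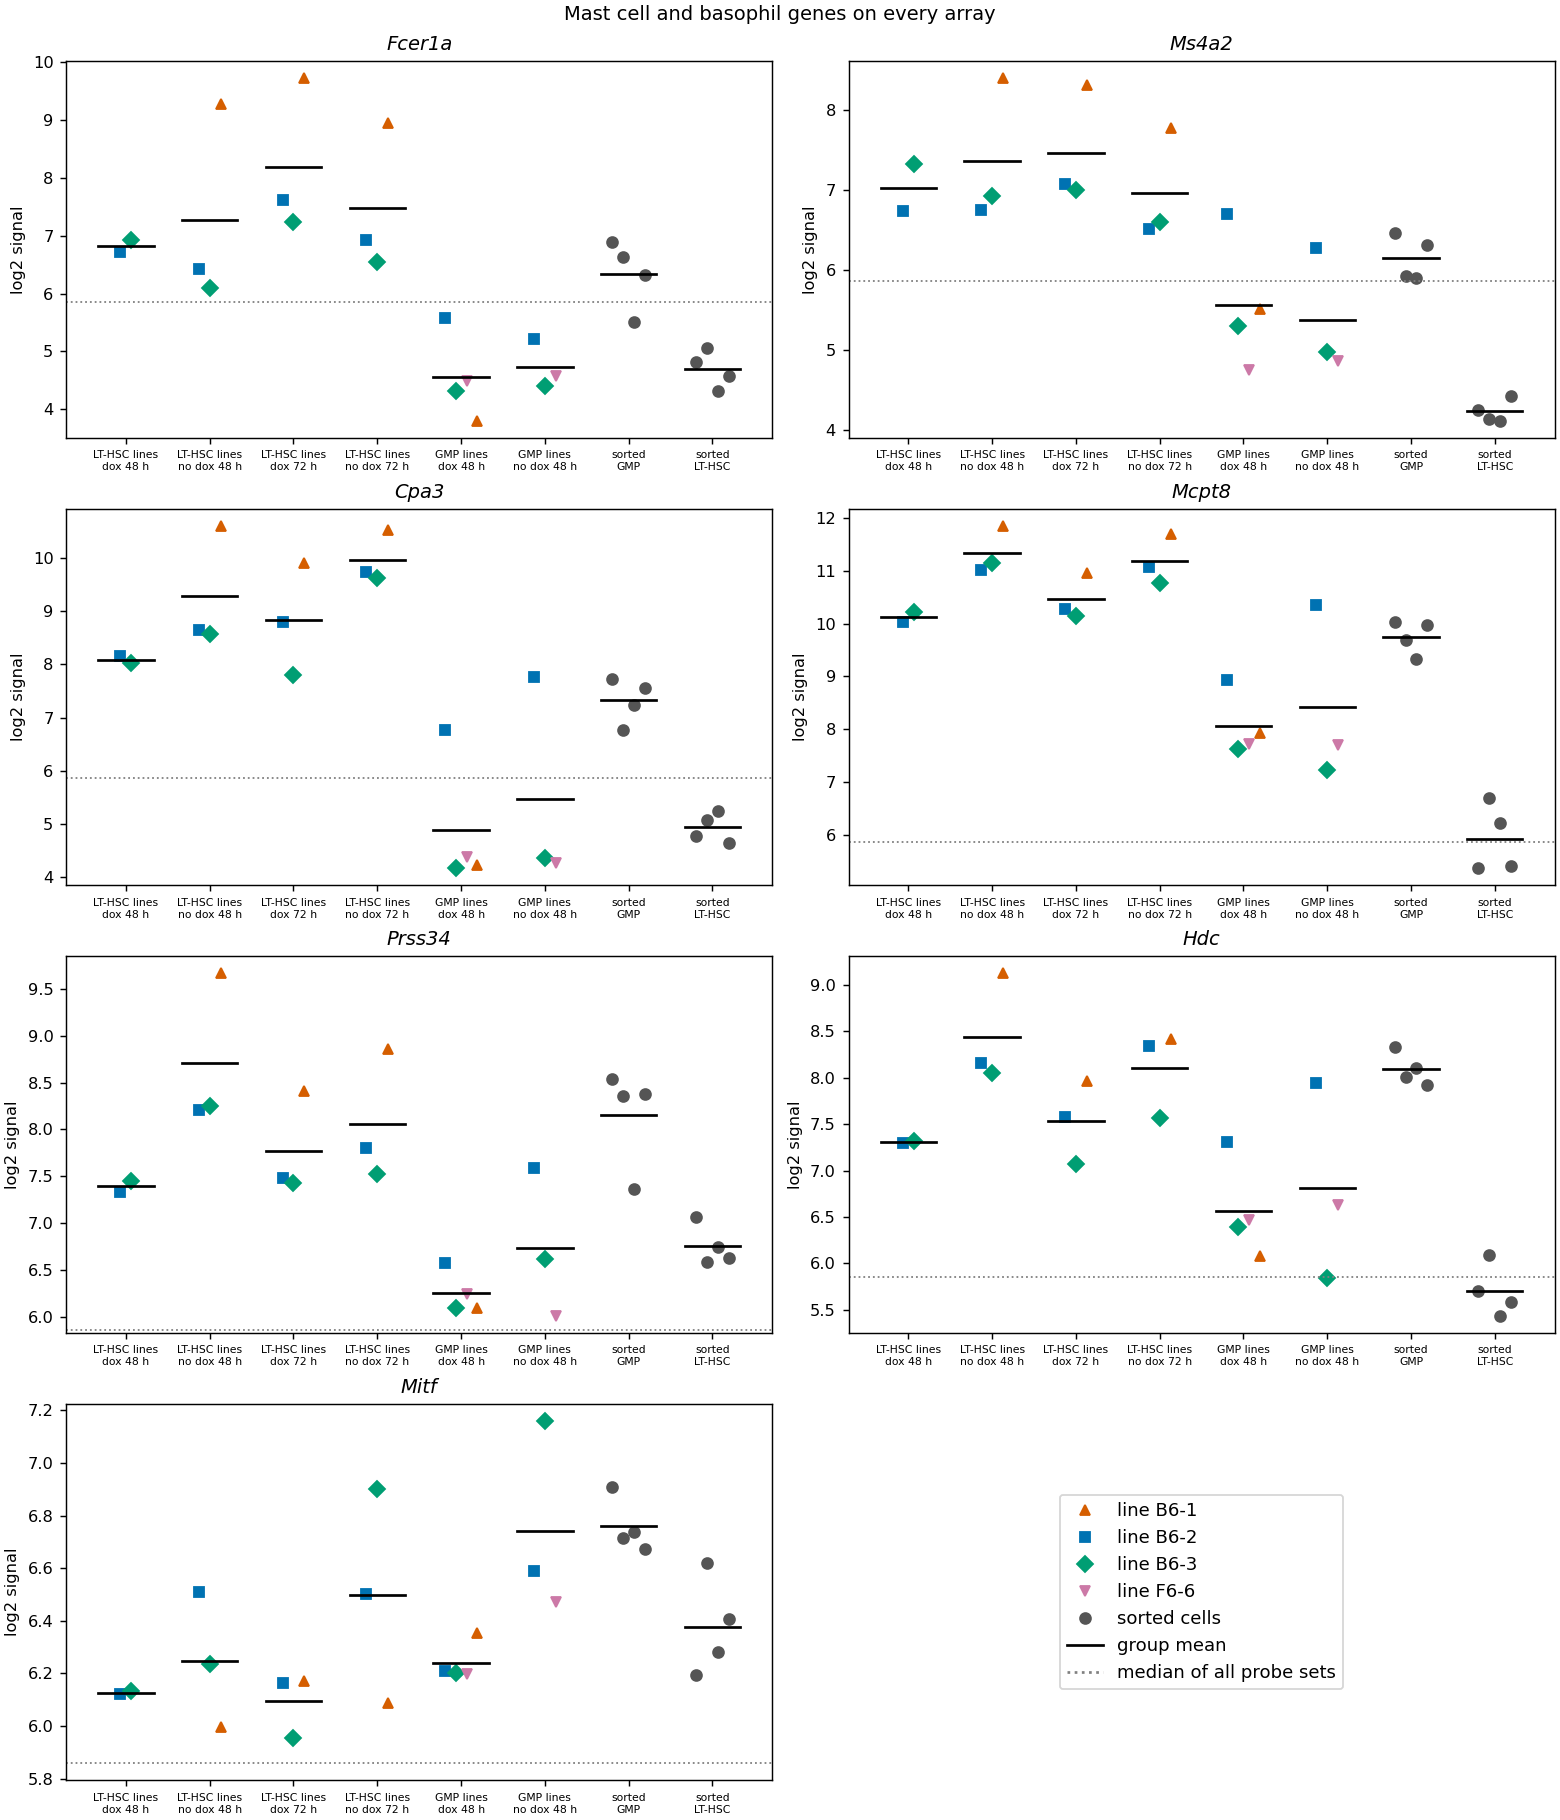
Log2 signal (y axis) of the 7 measured genes on every array, by group (x axis), with 1 point per array coloured by line, a bar at the group mean and a dotted line at the median of all probe sets. Line B6-1 lies above the other LT-HSC-derived lines and line B6-2 above the other GMP-derived lines for 6 of the 7 genes, all but Mitf.

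The 6 genes other than Mitf were at their highest in LT-HSC-derived lines, and the lines differed among themselves. In LT-HSC-derived lines, line B6-1 was the highest in each of its 3 groups for 6 of the 7 genes, as it was for 6.05% of all genes. In GMP-derived lines, line B6-2 was the highest in both groups for the same 6 genes, against 8.46% of all genes. These lines were singled out after their values were seen. Line B6-1 has no array among the lines of LT-HSC origin treated with dox for 48 h, so comparisons with that group set unequal lines against each other, and the results that change without B6-1 or B6-2 are given with their values.

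The comparisons were fitted with limma over all 19937 genes, with p-values adjusted by Benjamini and Hochberg's method and a threshold of 0.05 for a call. Arrays of the same line in different groups counted as independent in this fit. Its p-values and intervals therefore do not allow for a line's level recurring across groups. Sorted GMP over sorted LT-HSC gave 7 of 7 genes higher, where 16.8% of all genes were called higher. LT-HSC-derived over GMP-derived lines gave 6 of 7 higher without dox (3.52% of all genes higher) and 1 of 7 higher with dox (1.17%). Against sorted cells, LT-HSC-derived lines at 48 h had 6 of 7 genes higher without dox (17.1%) and 5 of 7 higher with dox (14.6%), whereas GMP-derived lines had 6 of 7 lower with dox (9.76%) and 2 of 7 lower without dox (12.7%). The share of genes called differed between these comparisons, and the count of 6 among LT-HSC-derived over GMP-derived lines without dox stood against the smallest share of those with 6 or 7. Every array of the first-named group stood above every array of the other for 7 of 7 genes between the sorted cells (16.1% of all genes), for 6 of 7 between the origins without dox (11.9%) and for 5 of 7 with dox (9.39%). Between the origins without dox the median difference of the 7 genes was 1.99, against 0.01 over all genes. With only the 6 arrays of that comparison in the fit, 0 of the 7 were called (limma adjusted p between 0.0703 and 0.138 for the 6), and in the fit of all groups 7 of 7 had an unadjusted p under 0.05 (17.8% of all genes), 6 with a higher level in LT-HSC-derived lines and Mitf with a lower one.

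For dox against no dox, the count of calls changed at 72 h when the line was taken into account, and not at 48 h. The block gave each LT-HSC-derived line 1 term shared by both times. At 48 h the B6-1 array without dox thus entered the blocked fit too. A blocked difference at 48 h can therefore lie outside the differences within lines B6-2 and B6-3. In LT-HSC-derived lines at 48 h, 0 of 7 genes were called by limma (0.441% of all genes called; 3 of the 7 had an unadjusted p under 0.05, against 7.3% of all genes), and with the line as a block the count stayed at 0 (1.48%). At 72 h, 0 of 7 were called without the line (7.15% of all genes; 1 of the 7 with an unadjusted p under 0.05, against 20.2% of all genes) and 3 of 7 with the line as a block (9.7%), of which 2 were higher (4.63%) and 1 was lower (5.06%). In GMP-derived lines at 48 h, 1 of 7 was lower (5.18% of all genes lower) with and without the line as a block (6.18% with it). The difference between the dox effects of LT-HSC-derived and GMP-derived lines at 48 h was called for 0 of 7 genes (0.231% of all genes; 0 of the 7 with an unadjusted p under 0.05, against 8.74% of all genes), and for 0 of 7 with the line as a block (0.492%).

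Fcer1a, the IgE-binding chain, separated the origins on every array at 48 h. Without dox its log2 signal was 6.43, 6.09 and 9.28 in LT-HSC-derived lines B6-2, B6-3 and B6-1, against 5.21, 4.41 and 4.57 in GMP-derived lines B6-2, B6-3 and F6-6. The lowest LT-HSC-derived line thus stood above the highest GMP-derived line, and line B6-1 lay far above its fellows. The log2 difference was 2.53 ± 0.69 (SE; 5.79-fold; limma adjusted p = 0.0251). Without the array of B6-1 it was 1.53 and not called (adjusted p = 0.228); with line B6-1 left out of every LT-HSC-derived group it was the same size and called (adjusted p = 0.0244). The call was also lost without the array of GMP-derived line B6-3 (adjusted p = 0.0976) or F6-6 (0.0681).
With dox, Fcer1a was at 6.72 and 6.93 in LT-HSC-derived lines B6-2 and B6-3, against 5.59, 4.33, 4.49 and 3.81 in GMP-derived lines B6-2, B6-3, F6-6 and B6-1. The arrays did not overlap, and the log2 difference of 2.28 ± 0.73 was not called (adjusted p = 0.14). It was called without line B6-1 of the LT-HSC-derived lines, which left the difference as it was and narrowed the pooled spread (SE 0.37, adjusted p = 0.000711), and with only the groups compared in the fit (adjusted p = 0.0278).

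Within LT-HSC-derived lines Fcer1a was higher with dox in every line. At 72 h it was at 7.62, 7.24 and 9.72 with dox in lines B6-2, B6-3 and B6-1, against 6.93, 6.55 and 8.95 in the same lines without dox. The groups overlap because B6-1 stands above both other lines in each of them, yet the differences within the lines were close to each other, between 0.69 and 0.77. With the line as a block the log2 difference was 0.72 ± 0.17 (adjusted p = 0.0126); without it the same difference had an SE of 0.69 and was not called (adjusted p = 0.618). At 48 h lines B6-2 and B6-3 differed by 0.30 and 0.84, and the blocked difference was 0.40 ± 0.20 (adjusted p = 0.596), whereas the fit without the line, in which B6-1 counts only among the arrays without dox, gave -0.44 ± 0.77 (adjusted p = 0.991). In GMP-derived lines the difference with dox was between -0.08 and 0.37 in the 3 lines with both arrays.

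Ms4a2, the beta chain, followed the alpha chain. Without dox at 48 h it was at 6.75, 6.92 and 8.39 in LT-HSC-derived lines B6-2, B6-3 and B6-1, against 6.27, 4.97 and 4.86 in GMP-derived lines B6-2, B6-3 and F6-6. The groups did not overlap, with line B6-2 of GMP origin nearest to the other origin, and the log2 difference was 1.99 ± 0.46 (3.96-fold; adjusted p = 0.00849). The call was lost without the array of B6-1 (1.47, adjusted p = 0.089) and without that of GMP-derived line B6-3 (1.79, adjusted p = 0.0515), and held with line B6-1 left out of every LT-HSC-derived group (adjusted p = 0.0331).
With dox the arrays of LT-HSC-derived lines (6.74 and 7.32) lay above those of GMP-derived lines (6.69, 5.30, 4.75 and 5.51), narrowly so for B6-2 of either origin. The log2 difference of 1.46 ± 0.49 was not called (adjusted p = 0.174). It was called without line B6-1 of the LT-HSC-derived lines (adjusted p = 0.0336) and without line B6-2 of the GMP-derived lines (1.84, adjusted p = 0.022).
At 72 h Ms4a2 was at 7.07, 7.0 and 8.31 with dox in LT-HSC-derived lines B6-2, B6-3 and B6-1, against 6.51, 6.60 and 7.77 without dox. Each line was higher with dox, by 0.40 to 0.56. With the line as a block the difference was 0.50 ± 0.13 (adjusted p = 0.0163); without it, it was not called (adjusted p = 0.603).

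The receptor chains also differed between the sorted cells. Fcer1a was at 6.90, 6.63, 5.51 and 6.32 in sorted GMP, against 4.81, 5.05, 4.32 and 4.58 in sorted LT-HSC, a log2 difference of 1.65 ± 0.60 (adjusted p = 0.0355). Leaving out any of 6 of the 8 sorted arrays ended this call, with adjusted p between 0.0566 and 0.1. Ms4a2 was at 6.45, 5.92, 5.9 and 6.31 in sorted GMP, against 4.24, 4.13, 4.11 and 4.42 in sorted LT-HSC, and rose by 1.92 ± 0.40 (adjusted p = 0.000453). In both genes every GMP array stood above every LT-HSC array.
GMP-derived lines with dox had less Fcer1a than sorted GMP (-1.79 ± 0.60, adjusted p = 0.0353), although line B6-2 at 5.59 overlapped the lowest sorted array at 5.51. That call was lost without sorted GMP replicate 1, 2 or 4 or without the dox array of line B6-3, F6-6 or B6-1 (adjusted p between 0.0652 and 0.115). Ms4a2 was not called there (-0.58 ± 0.40, adjusted p = 0.372). Without dox neither chain was called against sorted GMP (Fcer1a -1.61 ± 0.64, adjusted p = 0.0759; Ms4a2 -0.78 ± 0.43, adjusted p = 0.227), but Ms4a2 was without line B6-2 (-1.23, adjusted p = 0.0329) and Fcer1a was in a fit of those groups alone (adjusted p = 0.00345). At 48 h LT-HSC-derived lines without dox, on the other hand, exceeded sorted LT-HSC by 2.57 ± 0.64 for Fcer1a (adjusted p = 0.00249) and by 3.13 ± 0.43 for Ms4a2 (adjusted p = 2.4e-06), with no overlap. With dox the excess was 2.14 ± 0.73 for Fcer1a (adjusted p = 0.0283), a call lost without either array with dox or without sorted LT-HSC replicate 3 or 4 (adjusted p between 0.0504 and 0.147).

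The third chain of the receptor, Fcer1g, which is shared with other Fc receptors of myeloid cells, did not follow the other chains across origins. It was at 9.58 in LT-HSC-derived and 9.95 in GMP-derived lines without dox (-0.38 ± 0.12, adjusted p = 0.0549). It was lower with dox in LT-HSC-derived lines at 72 h (-0.50 ± 0.12, adjusted p = 0.00973) and in GMP-derived lines at 48 h (-0.36 ± 0.11, adjusted p = 0.0364), where each of the other chains was higher (72 h, with the line as a block) or not called.

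Cpa3, carboxypeptidase A3, had the widest range of the 7 genes between group means in culture: 9.96 at 72 h without dox in lines of LT-HSC origin and 4.88 with dox in those of GMP origin. Without dox at 48 h it was at 8.65, 8.58 and 10.61 in LT-HSC-derived lines B6-2, B6-3 and B6-1, against 7.77, 4.36 and 4.26 in GMP-derived lines B6-2, B6-3 and F6-6. Every LT-HSC-derived line was higher, and among the GMP-derived lines B6-2 stood more than 3 log2 units above the other 2. The log2 difference was 3.82 ± 0.74 (14.1-fold; adjusted p = 0.00172) and ranked 5th from the top among all genes.
With dox Cpa3 was at 8.16 and 8.03 in LT-HSC-derived lines, against 6.77, 4.16, 4.38 and 4.22 in GMP-derived lines B6-2, B6-3, F6-6 and B6-1. This was the only gene of the 7 called between the origins with dox (3.21 ± 0.78; 9.23-fold; adjusted p = 0.028). The call was lost with only the groups compared in the fit (adjusted p = 0.0526), without either LT-HSC-derived array (0.195 and 0.279) and without the GMP-derived array of B6-3, F6-6 or B6-1 (0.0675 to 0.0806).
Against sorted cells Cpa3 went in opposite directions in the lines of either origin: at 48 h, LT-HSC-derived lines without dox exceeded sorted LT-HSC by 4.35 ± 0.69 (adjusted p = 1.57e-05), and GMP-derived lines with dox lay below sorted GMP by a log2 difference of -2.44 ± 0.64 (adjusted p = 0.00713). Sorted GMP had 7.72, 6.76, 7.24 and 7.57, against 4.76, 5.08, 5.24 and 4.64 in sorted LT-HSC (2.39 ± 0.64, adjusted p = 0.00454).

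Cpa3 was lower with dox in LT-HSC-derived lines at 72 h when each line was set against itself. The values were 8.80, 7.80 and 9.91 with dox in lines B6-2, B6-3 and B6-1, against 9.73, 9.62 and 10.53 without dox. All 3 lines were lower with dox, B6-3 the most. With the line as a block the log2 difference was -1.13 ± 0.27 (adjusted p = 0.0108), and without it the same difference was not called (adjusted p = 0.426). At 48 h the differences of lines B6-2 and B6-3 were -0.50 and -0.55. The blocked fit, in which the B6-1 array without dox also counts, did not call the difference (-0.69 ± 0.31, adjusted p = 0.493).

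Mcpt8, a basophil granule protease, lay between the 95.7 and 99.6 percentiles of an array's values on every array of lines from LT-HSC. At 48 h without dox it was at 11.02, 11.16 and 11.86 in lines B6-2, B6-3 and B6-1 of LT-HSC origin, against 10.35, 7.22 and 7.70 in lines B6-2, B6-3 and F6-6 of GMP origin. Again only line B6-2 came near the other origin. The log2 difference was 2.92 ± 0.53 (7.57-fold; adjusted p = 0.000918). With dox it was at 10.04 and 10.22 in LT-HSC-derived lines, against 8.93, 7.63, 7.71 and 7.93 in GMP-derived lines, and the difference of 2.08 ± 0.56 missed the threshold (adjusted p = 0.0517). It passed under several alternatives, among them leaving out line B6-2 of the GMP-derived lines (2.37, adjusted p = 0.000314).
Sorted GMP had 10.03, 9.69, 9.32 and 9.97, against 5.36, 6.70, 6.22 and 5.40 in sorted LT-HSC. This was the largest difference of the 7 genes between the sorted cells (3.83 ± 0.46; 14.3-fold; adjusted p = 2.51e-07). At 48 h, lines of LT-HSC origin without dox exceeded sorted LT-HSC by 5.42 ± 0.49 (43.0-fold; adjusted p = 3.07e-09). GMP-derived lines with dox lay below sorted GMP (-1.70 ± 0.46, adjusted p = 0.00847). Without dox Mcpt8 and Cpa3 just missed the threshold there (adjusted p = 0.0532 and 0.0536), and without line B6-2 both were called, at -2.29 (adjusted p = 2.51e-05) and -3.01 (adjusted p = 6.7e-05).
With dox Mcpt8 was lower in every LT-HSC-derived line, with differences of -0.98 and -0.94 at 48 h and between -0.80 and -0.62 at 72 h. At 72 h it was at 10.28, 10.15 and 10.96 with dox in lines B6-2, B6-3 and B6-1, against 11.08, 10.77 and 11.70 without dox. Neither time was called with the line as a block (adjusted p = 0.291 and 0.169).

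Prss34, another basophil protease, was at 8.21, 8.25 and 9.67 without dox at 48 h in LT-HSC-derived lines B6-2, B6-3 and B6-1, against 7.59, 6.62 and 6.01 in GMP-derived lines B6-2, B6-3 and F6-6. The groups did not overlap (1.97 ± 0.40; 3.93-fold; adjusted p = 0.00255). With dox it was at 7.33 and 7.45 in LT-HSC-derived lines, against 6.57, 6.09, 6.24 and 6.09 in GMP-derived lines. Those arrays did not overlap either, but the difference of 1.14 ± 0.42 was called only with the groups compared alone in the fit (adjusted p = 0.0058) or without line B6-1 (adjusted p = 0.0464), and under none of the other settings run (adjusted p = 0.242 in the fit of all groups).
The mean of Prss34 was 8.71 without dox at 48 h and 8.06 without dox at 72 h in lines of LT-HSC origin, on either side of 8.16 in sorted GMP. Sorted GMP had 8.54, 8.36, 7.36 and 8.38, against 7.06, 6.58, 6.74 and 6.63 in sorted LT-HSC (1.41 ± 0.34, adjusted p = 0.0021). GMP-derived lines lay below sorted GMP with dox (-1.91 ± 0.34, adjusted p = 0.000205) and without dox (-1.42 ± 0.37, adjusted p = 0.00601). Without the array of line F6-6 the call without dox was lost (-1.06, adjusted p = 0.0637).
In LT-HSC-derived lines at 48 h Prss34 was lower with dox, with differences of -0.88 in line B6-2 and -0.80 in line B6-3, and both arrays with dox lay below all 3 without it. The blocked difference was -0.92 ± 0.24 (adjusted p = 0.0668). At 72 h the lines differed by -0.09 to -0.45, which the blocked fit did not call (adjusted p = 0.458).

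**Figure D2:**
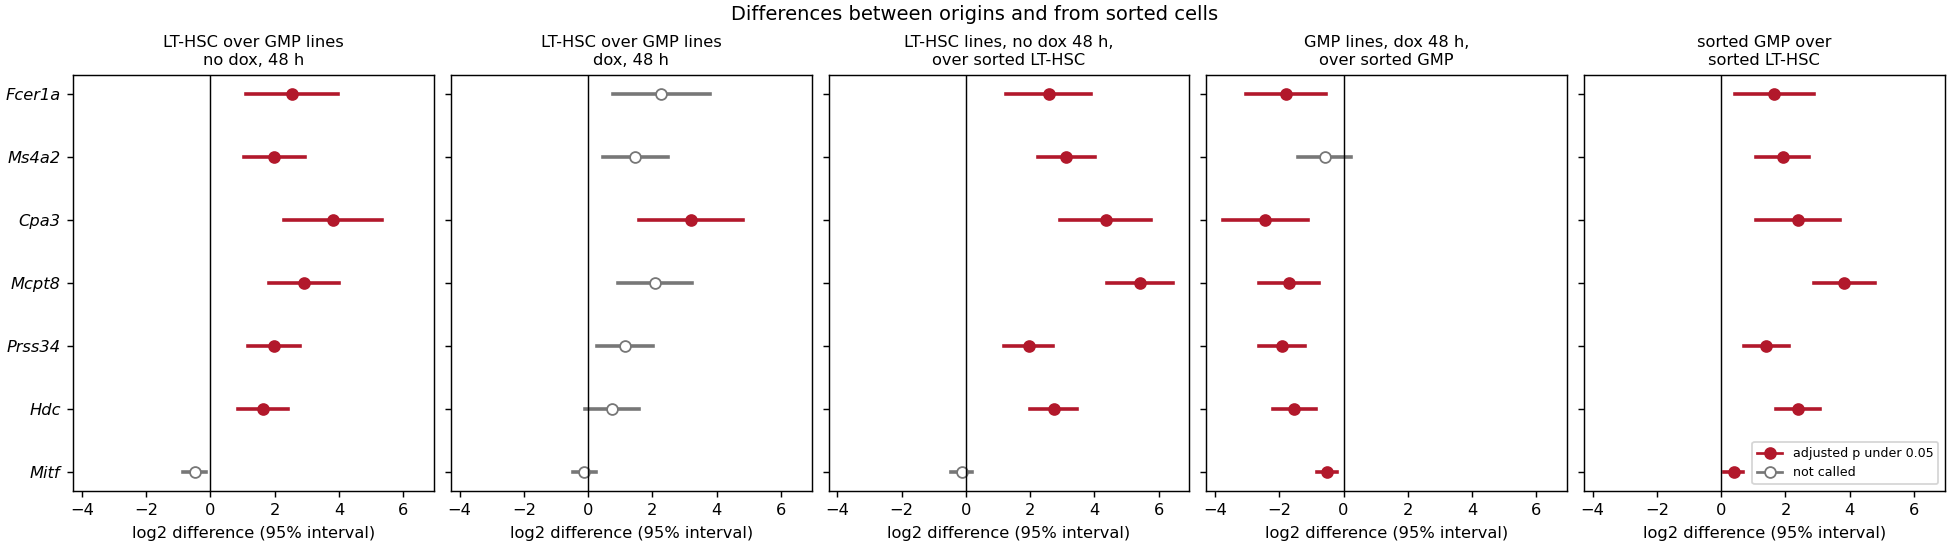
Log2 difference (x axis) of the 7 genes (rows) in 5 comparisons, as the estimate with its 95% interval from limma; filled red points were called. Without dox, 6 of 7 genes were higher in LT-HSC-derived than in GMP-derived lines; with dox, Cpa3 alone was called, with estimates on the same side for the other 5.

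Hdc, which makes histamine, was at 8.16, 8.05 and 9.13 without dox at 48 h in LT-HSC-derived lines B6-2, B6-3 and B6-1, against 7.95, 5.84 and 6.63 in GMP-derived lines B6-2, B6-3 and F6-6. The gap between the nearest arrays, B6-3 of LT-HSC origin and B6-2 of GMP origin, was small, and the difference was 1.64 ± 0.38 (3.11-fold; adjusted p = 0.00827). It was not called without line B6-1 of the LT-HSC-derived lines (1.29, adjusted p = 0.0716) or without the array of GMP-derived line B6-3 (1.15, adjusted p = 0.0837). With dox Hdc was at 7.30 and 7.32 in LT-HSC-derived lines, against 7.30, 6.39, 6.47 and 6.08 in GMP-derived lines; the groups overlapped and the difference was 0.75 ± 0.40 (95% interval -0.08 to 1.58, adjusted p = 0.585).
Hdc reached 8.34, 8.0, 8.11 and 7.92 in sorted GMP, against 5.70, 6.09, 5.44 and 5.59 in sorted LT-HSC, a difference of 2.39 ± 0.33 (5.23-fold; adjusted p = 2.31e-06). Lines of LT-HSC origin averaged 8.11 without dox at 72 h, against 8.09 in sorted GMP. GMP-derived lines lay below sorted GMP with dox (-1.53 ± 0.33, adjusted p = 0.0013) and without dox (-1.28 ± 0.36, adjusted p = 0.00925). Without the array of line B6-3 the call without dox was lost (-0.80, adjusted p = 0.129).
With dox Hdc was lower in every LT-HSC-derived line, with differences of -0.85 and -0.73 at 48 h and between -0.77 and -0.45 at 72 h. The blocked differences were -0.90 ± 0.22 (adjusted p = 0.0572) and -0.57 ± 0.19 (adjusted p = 0.0763).

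Mitf did not share the pattern of the other 6 genes. Its group means spanned 6.10 to 6.76, and it was highest in sorted GMP and in GMP-derived lines without dox. Without dox at 48 h it was at 6.51, 6.23 and 6.00 in LT-HSC-derived lines B6-2, B6-3 and B6-1, against 6.59, 7.16 and 6.47 in GMP-derived lines B6-2, B6-3 and F6-6 (-0.49 ± 0.17, adjusted p = 0.0826). It was called without the array of LT-HSC-derived line B6-2 (-0.63, adjusted p = 0.0446) or of GMP-derived line F6-6 (-0.63, adjusted p = 0.0412). Line B6-1, the highest for the other genes, was the lowest here.
With dox Mitf was at 6.21, 6.20, 6.20 and 6.35 in GMP-derived lines B6-2, B6-3, F6-6 and B6-1, below every array without dox. It was the only gene of the 7 called with dox in GMP-derived lines (-0.50 ± 0.16, adjusted p = 0.0408; -0.54 ± 0.16 with the line as a block, adjusted p = 0.0381). The call was lost with only the groups compared (adjusted p = 0.0675), without GMP-derived line B6-2 (0.0857), and without the array of lines B6-2, B6-3 or F6-6 with dox or of line B6-3 without dox, whose omission left -0.29 (adjusted p = 0.384).
In LT-HSC-derived lines at 72 h it was at 6.16, 5.95 and 6.17 with dox in lines B6-2, B6-3 and B6-1, against 6.50, 6.90 and 6.09 without dox, so that B6-1 alone was not lower with dox (-0.40 ± 0.17, adjusted p = 0.17). Without line B6-1 the difference was -0.64 and was called (adjusted p = 0.0352).
Sorted GMP had 6.91, 6.72, 6.74 and 6.67, against 6.19, 6.62, 6.28 and 6.41 in sorted LT-HSC (0.38 ± 0.15, adjusted p = 0.0468), a call that leaving out any of 7 of the 8 arrays ended (adjusted p between 0.056 and 0.14). GMP-derived lines with dox lay below sorted GMP (-0.52 ± 0.15, adjusted p = 0.0123), with no overlap. The other probe set of Mitf was dim, with group means between 2.79 and 3.18. With the mean of both probe sets none of these calls held: the difference was 0.23 between the sorted cells (adjusted p = 0.174), -0.30 with dox in GMP-derived lines (adjusted p = 0.172) and -0.20 between those with dox and sorted GMP (adjusted p = 0.285).

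**Figure D3:**
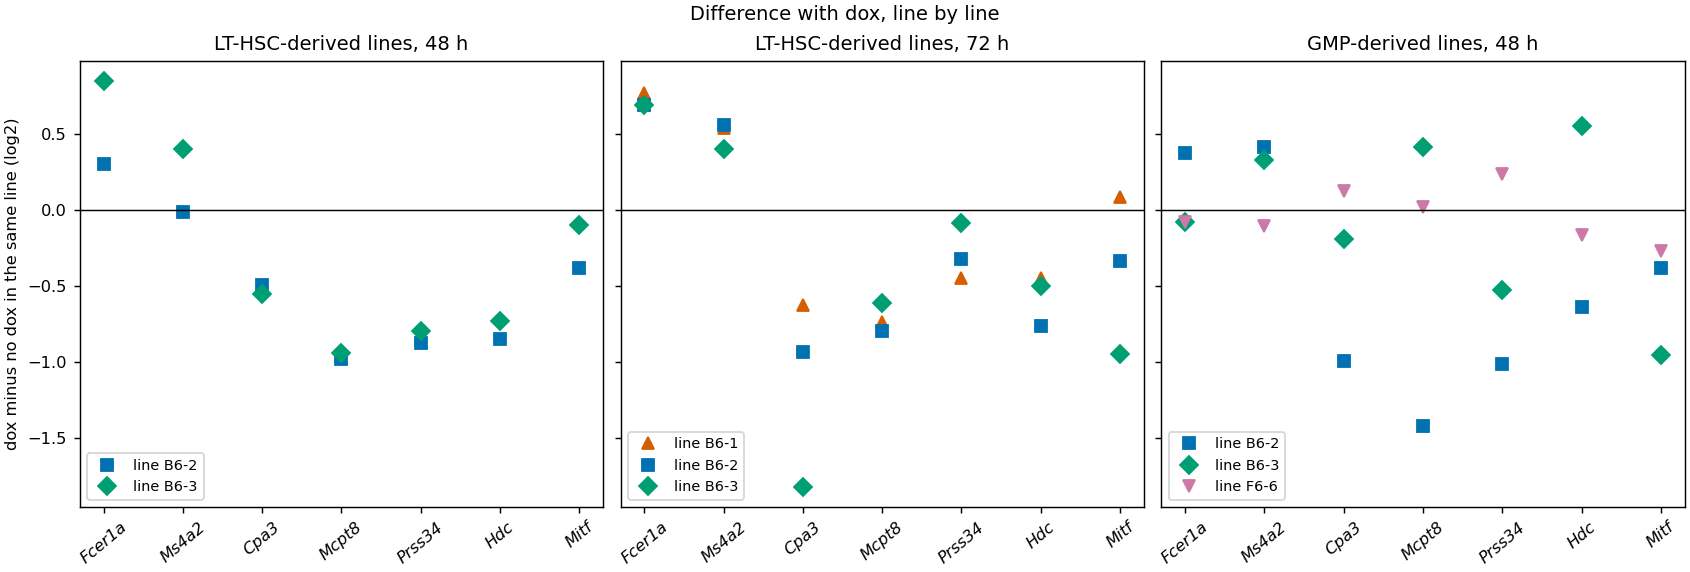
Difference with dox minus without dox in the same line (log2, y axis) for the 7 genes (x axis), with 1 point per line, in LT-HSC-derived lines at 48 h and 72 h and in GMP-derived lines at 48 h. At 72 h the receptor chains Fcer1a and Ms4a2 lie above 0 in all 3 LT-HSC-derived lines and the proteases and Hdc below 0 in all 3; in GMP-derived lines Mitf alone has the same sign in all 3.

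Line by line, the receptor chains and the granule genes had opposite signs with dox in LT-HSC-derived lines at 72 h. The difference had the same sign in all 3 lines for 6 of the 7 genes, against 37.4% of all genes; 2 were higher with dox in every line (17.4% of all genes) and 4 were lower (20.1%). Of these 6, the blocked fit called Fcer1a, Ms4a2 and Cpa3, and not Mcpt8, Prss34 or Hdc. At 48 h the sign was the same in both lines for 6 of the 7 genes, against 58.6% of all genes, and Ms4a2 went both ways, with differences of -0.01 and 0.40 (0.12 ± 0.14 with the line as a block, adjusted p = 0.928). In GMP-derived lines the sign was the same in all 3 lines for 1 of the 7 genes, against 43.8% of all genes. Line B6-2, the GMP-derived line in which the proteases were highest, had the largest decreases there: -1.42 for Mcpt8, -1.01 for Prss34 and -1.0 for Cpa3. In lines B6-3 and F6-6, where these genes were lower than in B6-2, the differences of the proteases were between -0.53 and 0.41.

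By the order of group means, the LT-HSC-derived groups took the first 4 places for Fcer1a, Ms4a2, Cpa3 and Mcpt8, with sorted GMP in the fifth place. Neighbours within these first 4 places overlapped on single arrays for all 4 genes. For Fcer1a, Cpa3 and Prss34, sorted LT-HSC and GMP-derived lines with and without dox held the last 3 places. These groups overlapped for Fcer1a and Cpa3, whereas for Prss34 the highest GMP-derived array with dox, at 6.57, lay just below the lowest sorted LT-HSC array, at 6.58. For Ms4a2 and Mcpt8 sorted LT-HSC were the lowest, below every array of the group next to them. Sorted LT-HSC were also the lowest for Hdc, where 1 array reached into the range of GMP-derived lines with dox.

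Other genes of mast cells and basophils were counted from lists drawn up for these cells. The lists were chosen with earlier results of these data known, so their counts are not independent of the data. Between LT-HSC-derived and GMP-derived lines without dox, 3.52% of all genes were called higher and 3.28% lower. Of 23 other granule and mediator genes 9 were higher and 1 was lower (median 0.52, against 0.01 over all genes). Among them the cytokine gene Il6 differed by 4.17 ± 0.65 (adjusted p = 0.000187), granzyme B, Gzmb, by 2.23 ± 0.62 (adjusted p = 0.0293) and the steroid-forming enzyme Cyp11a1 by 1.54 ± 0.41 (adjusted p = 0.0225). Of 16 other receptors 5 were higher and 0 were lower, with the IL-18 receptor chain Il18r1 at 2.66 ± 0.32 (adjusted p = 7.84e-06) and the basophil and mast cell surface receptor Cd200r3 at 2.51 ± 0.52 (adjusted p = 0.00309). Of 15 transcription factors 2 were higher, Gata2 by 0.85 ± 0.20 (adjusted p = 0.00799) and Tal1 by 0.68 ± 0.11 (adjusted p = 0.000175), and 1 was lower, Fli1. Of 13 genes of IgE receptor signalling 3 were higher, among them the kinase Fyn by 1.35 ± 0.12 (adjusted p = 1.4e-07), and 2 were lower, including Syk. With dox, 1.17% of all genes were called higher and 0.943% lower between the origins. There 3 of the 16 receptors, 2 of the 23 granule and mediator genes and 1 of the 13 signalling genes were higher. Il18r1 differed by 3.43 ± 0.34 (adjusted p = 7.97e-07) and Il6 by 2.99 ± 0.69 (adjusted p = 0.0189). Of the 15 transcription factors 1 was lower.
Kit, the stem cell factor receptor on which mast cells depend, was not called between the origins without dox (0.33 ± 0.18, adjusted p = 0.338). It was highest in sorted LT-HSC (mean 10.4), where it also marks stem cells, and rose with dox in LT-HSC-derived lines at 72 h (0.71 ± 0.18, adjusted p = 0.0129).

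Markers of other blood cells differed between the origins too, and their part in the results was not tested. Without dox, 1 of 4 eosinophil markers was higher in LT-HSC-derived than in GMP-derived lines, Prg2, eosinophil major basic protein, by 3.26 ± 0.85 (adjusted p = 0.0195), and the log2 of the summed signal of the 4 markers ranged from 10.38 to 10.76 in LT-HSC-derived lines and from 7.64 to 10.06 in GMP-derived lines. Of 7 neutrophil granule markers 2 were lower, Camp by -2.21 ± 0.53 and Elane by -0.82 ± 0.17, and 0 of 5 monocyte markers were called. Of 4 megakaryocyte markers 2 were higher, of 3 erythroid markers 1 was higher, and of 6 stem cell markers 1 was higher and 1 lower. These counts stand beside 3.52% of all genes called higher and 3.28% called lower. Irf8 was counted both as a monocyte marker and among the transcription factors, and Itga2b both as a megakaryocyte marker and among the receptors. The summed neutrophil signal ranged from 13.21 to 13.44 in LT-HSC-derived lines and from 13.67 to 13.86 in GMP-derived lines.

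**Figure D4:**
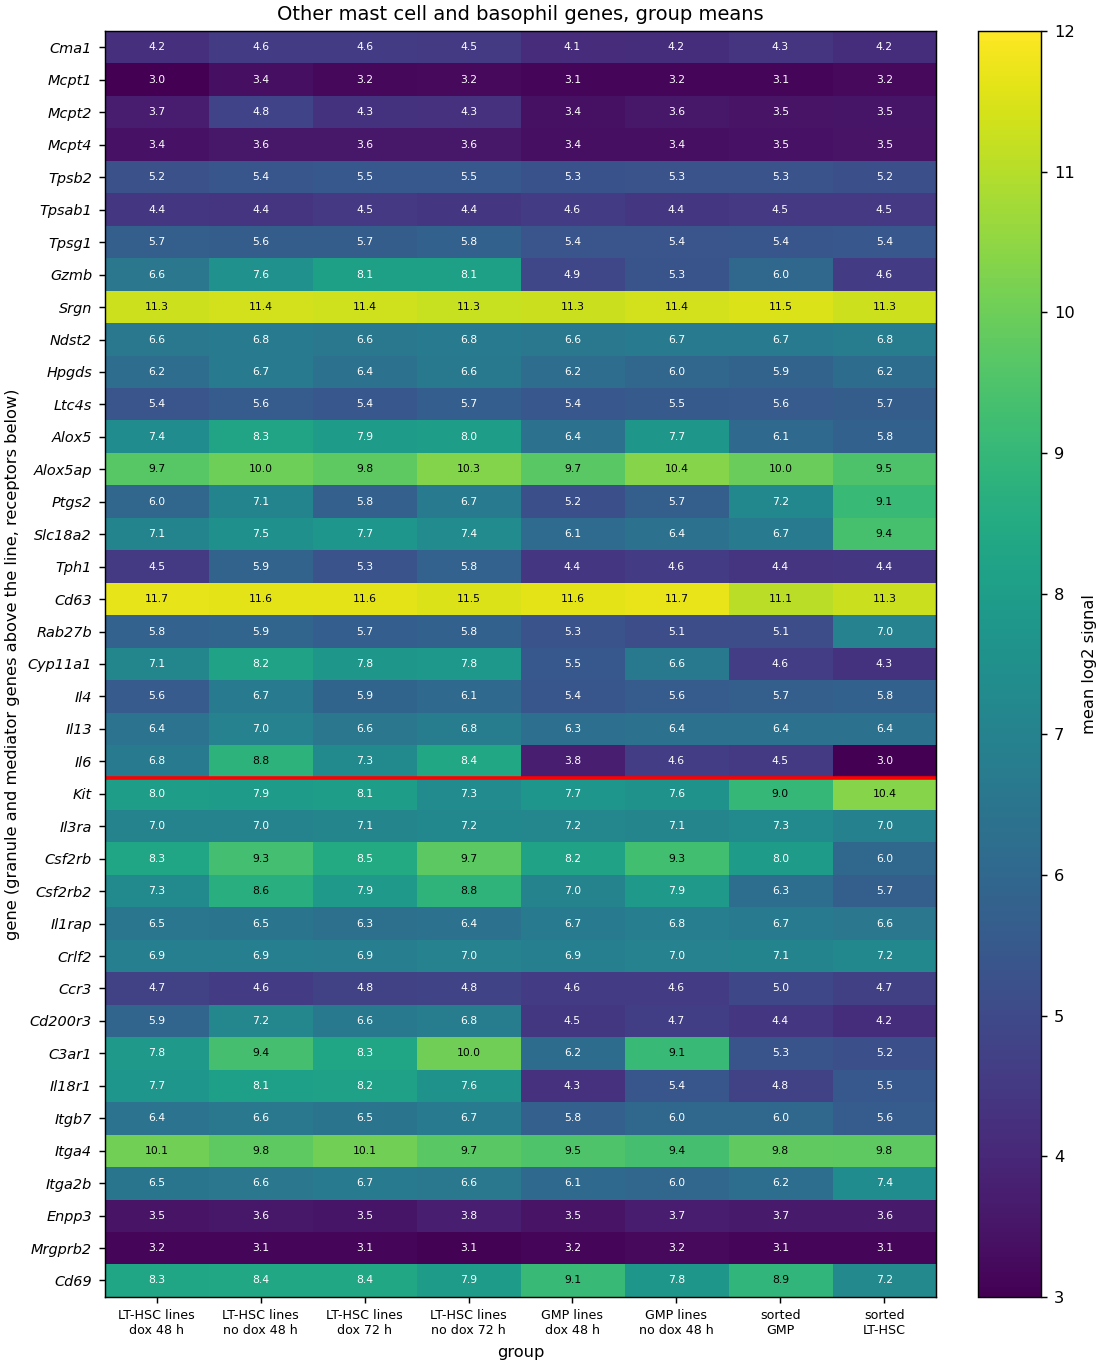
Mean log2 signal (colour and printed value) of 23 other granule and mediator genes, above the red line, and 16 other receptors, below it, in the 8 groups. Gzmb, Il6, Cyp11a1, Il18r1 and Cd200r3 are higher in the 4 groups of LT-HSC-derived lines than in GMP-derived lines, whereas Mcpt4, Mcpt1, Cma1 and Tpsb2 are low throughout. Mcpt2 is not counted among these, as its spread was wider in LT-HSC-derived lines than in the other groups.

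With dox the wider lists were counted in the same way, and no test of a list as a whole was run. In LT-HSC-derived lines at 48 h 0 genes of the 4 lists were higher, and 0 of 13 IgE receptor signalling genes, 0 of 23 granule and mediator genes, 1 of 16 receptors and 1 of 15 transcription factors were lower (0.286% of all genes lower). With the line as a block 2 granule and mediator genes, 2 receptors and 1 transcription factor were lower (1.18% of all genes lower). At 72 h, where 3.72% of all genes were lower and 3.43% higher (5.06% and 4.63% with the line as a block), 3 of the 13 signalling genes were lower and 0 higher (4 lower and 1 higher with the line as a block). Of the granule and mediator genes 2 were lower and 0 higher (3 lower with the line as a block). Of the receptors 3 were lower and 1 higher (3 lower and 2 higher with the block), and of the transcription factors 4 were lower and 0 higher (6 lower with the block). The cytokine receptor chain Csf2rb, shared by the receptors for IL-3, IL-5 and GM-CSF, fell by 1.23 on the log2 scale (SE 0.20, adjusted p = 0.00036), the anaphylatoxin receptor C3ar1 fell by 1.77 (SE 0.44, adjusted p = 0.0138) and the transcription factor Spi1 fell by 0.57 (SE 0.14, adjusted p = 0.0123). In GMP-derived lines, where 5.18% of all genes were lower and 5.75% higher, 6 of 13 signalling genes were lower and 0 higher (7 lower with the line as a block), as were 2 of 23 granule and mediator genes and 4 of 15 transcription factors, and 4 of 16 receptors were lower and 1 higher. With the line as a block 3 granule and mediator genes, 5 transcription factors and 4 receptors were lower, and 1 receptor was higher (6.18% of all genes lower and 5.29% higher). Among the genes called without the block, Syk differed by -0.54 ± 0.07 (adjusted p = 8.72e-06) and C3ar1 fell by 2.90 (SE 0.41, adjusted p = 3.88e-05). At 72 h 3 of 6 stem cell markers were higher with dox in LT-HSC-derived lines, and their summed signal ranged from 9.98 to 10.31 with dox and from 8.69 to 8.94 without dox; 2 of 5 monocyte markers were lower (4 with the line as a block), with a summed signal of 11.00 to 11.32 with dox and 11.71 to 12.27 without dox. The part of these shifts in the differences of the 7 genes was not tested.

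Across all 26 arrays the 6 genes other than Mitf varied together: Pearson's r between any pair lay between 0.751 and 0.928, the highest for Mcpt8 and Hdc. The arrays share groups and lines, so this r describes these arrays only, and after the group means were removed it still lay between 0.566 and 0.881. Mitf had r between -0.326 and -0.019 with the other 6. Among 2431 genes whose highest and lowest group means differed by at least 1 log2, the gene most like Cpa3 was Gzmb (r = 0.941), followed by Il6 (0.930) and Prg3 (0.917), which encodes a homologue of eosinophil major basic protein. Gzmb was also the most like Fcer1a (0.908), Rnase12 the most like Ms4a2 (0.929) and Hdc the most like Mcpt8 (0.928). For Prss34 it was Cpa3 (0.846), and for Mitf it was Atp11a (0.759), a phospholipid flippase, and Fn1 (0.746), fibronectin.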

How the data were processed

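The deposited table holds log2 signals of 34760 Affymetrix probe sets on 26 arrays. The authors used limma and R 3.1.1, per the submitters' processing notes; RNA was amplified to cDNA and biotin-labelled, per the labels' protocols. How background was corrected and probe sets were summarised and normalized is not stated in the labels or headers. Probe sets with 1 symbol (21640, against 1321 with several and 11799 with none) were reduced to 19937 genes by the highest mean. A group-means model of all 26 arrays was fitted with limma 3.58.1 in R 4.3.3, with empirical Bayes moderation and Benjamini-Hochberg adjustment over all genes at 0.05. It was tested on simulated data.

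The members and lists were chosen with earlier results of these data known. Named were the 8 members, at most 3 called genes per list and comparison with the largest difference, and per member the 3 genes with the highest r; other list genes, such as Kit and Fcer1g, were named after their values were seen. The labels give the line of each cultured array, so arrays of a line were paired; their deviations from group means correlated with r of 0.345 and 0.213 (LT-HSC-derived, 48 h), 0.321, -0.0569 and 0.261 (72 h) and 0.291, 0.326 and 0.401 (GMP-derived). Alternatives were quantile normalization, a filter keeping 11995 genes, a fit of the compared groups alone, a trended prior, the mean of all probe sets, the block and leaving out each array.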

Additional observations from a re-analysis of the deposited data

Results flagged for a closer look

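Of 21 sets of 4 arrays tested (a gene in a group), 3 held an array far from the others, where the gap to the nearest array, as a share of the range, exceeded Dixon's critical value; chance flags about 1 in 20. Cpa3 in GMP-derived lines with dox was at 6.77 in replicate 1, line B6-2, and the next array was at 4.38 (gap 0.916 of the range). Mitf in the same group was at 6.35 in replicate 4, line B6-1, and the next array was at 6.21 (0.936). Prss34 in sorted GMP was at 7.36 in replicate 3, below the next array at 8.36 (0.845).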

How the results depend on the processing

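No difference of the 7 genes changed sign under any alternative run where it was called. For LT-HSC-derived over GMP-derived lines without dox, 6 genes were called, 0 with only the groups compared and 3 to 6 when an array was left out (3 without B6-1 of LT-HSC origin or B6-3 of GMP origin). With dox the count was 1, and 2 with the filter on dim genes, 3 with only the groups compared, 2 with the trended prior, 5 without line B6-1, 3 without line B6-2 and 0 to 3 without an array. Dox at 72 h called 0, 3 with the line as replicate block, 1 without line B6-1 and 0 to 1 without an array. Dox in GMP-derived lines called 1, and 0 with only the groups compared, with the mean of all probe sets or without line B6-2 (0 to 1 without an array). GMP-derived lines without dox against sorted GMP called 2, 4 with the filter or the trended prior, 5 without line B6-2 and 1 to 4 without an array. The causes were not tested. Leaving out a line was chosen after seeing the data.

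Over all genes, dox at 48 h in LT-HSC-derived lines called 88 genes, 295 with the block, 54 with only the groups compared and 10 to 48 without some arrays. At 72 h it called 1425, 647 with only the groups compared and 859 to 903 without some arrays. The comparison of origins called 1355 without dox (595 with only the groups compared, 897 without line B6-1, 743 and 880 without an array) and 421 with dox (110 and 237 without an array). Dox in GMP-derived lines called 2179, and 1224 without B6-3 without dox. The difference of dox effects called 46 (98 with the block, 21 with only the groups compared, 27 without line B6-2, 8 to 29 without some arrays). The block changed no other call of the 7 genes. Sorted replicate numbers did not pair the arrays (r 0.0204 to 0.0605), and with them as a block 6620 genes were called, against 6402. Lines lie within an origin, so no block was run for comparisons of origins or with sorted cells. The p-values of those comparisons count repeated arrays of a line as independent.

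Groups of 2 to 4 arrays limit the precision. In simulated data of 19937 genes for dox at 72 h, 74% of 50 genes changed by 0.5 log2 were called. Of 100 genes changed by 1 log2, 95% were called. These shares need not hold for genes whose lines differ widely, such as Cpa3 and Fcer1a. Without the line as a block, Cpa3 differed by -1.13 with dox at 72 h (SE 0.74, limma adjusted p = 0.426). Fcer1a differed by 0.72 (SE 0.69, limma adjusted p = 0.618), and neither was called.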
